A study of Mus musculus with 6 samples.

Results

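Interleukins are secreted signalling proteins of immune and barrier cells, and interleukin receptors are the surface proteins that bind them. The genes described here are those whose probe rows carried exactly 1 gene symbol beginning with Il and a digit, which gave 76 genes from 80 rows among 19935 genes measured. They were sorted by role into 10 ligands and antagonists of the IL-1 family, 9 cytokines known as NFAT targets in T cells, 19 other interleukins, 7 members of the IL-1 receptor family, 29 other receptor genes, and 2 others, the binding protein gene Il18bp and the transcript Il1bos. RNA was measured on 6 arrays, 3 of keratinocytes carrying caNFATc1 and 3 of keratinocytes carrying the vector alone. All cultures were primary keratinocytes of wild type CD1 mice, held in a growth medium low in calcium and infected with a retrovirus. In the caNFATc1 cultures the virus delivered a human NFATc1 whose autoinhibitory domain was mutated so that the protein is always active, and in the vector control cultures it was the empty MSCV retrovirus, so both groups were infected.

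NFAT factors are held in the cytoplasm until the calcium-activated phosphatase calcineurin removes their phosphates, after which they enter the nucleus and bind DNA, often beside AP-1 proteins. In activated T cells this step turns on IL-2, IL-4 and other cytokine genes, and it is what the drugs cyclosporin A and tacrolimus block. Keratinocytes are themselves a source of interleukins. They hold stores of IL-1 alpha, IL-18 and IL-33, all of the IL-1 family, and they respond to cytokines that signal through IL-1 type receptors and through gp130, the shared receptor chain of the IL-6 family.

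All values are on the log2 scale and are relative to the median of the same row over the 6 arrays. They show how a gene differed between arrays and not how strongly it was expressed, so a gene that stayed level may be steadily expressed or not expressed. For the same reason the keratinocyte label could not be checked against marker levels, and only differences between groups can be given. Of 8 keratinocyte markers 4 differences were positive and 4 negative, with a median of 0.01. The 1 called was Trp63, higher by 0.42 ± 0.08 (adjusted p = 0.0444), and Krt15 differed by -0.58 ± 0.18 without passing (0.132), lower in each pair. Differences are caNFATc1 minus vector control, with the standard error (SE) of a limma fit in which arrays of the same replicate number form a pair (n = 3 pairs). A gene was called when its Benjamini-Hochberg adjusted p over all 19935 genes was under 0.05. Replicate 1 stood apart, with Xist, the RNA of the inactive X chromosome, lower there than on every other array by at least 5.97. Eif2s3y, a gene of the Y chromosome, was at 3.00 in the control and 3.77 in the caNFATc1 array of replicate 1. On the other arrays it lay between -0.08 and 0.01. The part of this in the interleukin results was not tested. Rcan1, a known NFAT target, was at -1.44, -1.68 and -1.57 in the controls and 2.17, 1.44 and 1.83 in caNFATc1 cells, higher by 3.38 ± 0.10 (adjusted p = 6.85e-04).

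Among the 76 interleukin and interleukin receptor genes 4 were called. Il11 and the gp130 gene Il6st rose, and the cytokine gene Il18 and the IL-36 receptor gene Il1rl2 fell. The 4 calls are 5.26% of the 76 genes, against 6.11% called among all genes, a share near the background. Those called higher were 2.63% of the members against 3.73% of all genes, and those called lower were 2.63% against 2.38%. Of the 76, 36 had a positive and 40 a negative difference, with a median of -0.01, the same as the median of all genes when rounded. In a fit that ignores the pairing, limma called 0 members, against 0.216% of all genes. At an unadjusted p under 0.05 that fit had 6 of the 76 members, against 2534 of all 19935 genes. All 4 calls were lost without the pairing of the arrays, though not to the same degree. Without it the SE went from 0.09 to 0.11 for Il11 and from 0.12 to 0.17 for Il6st. For Il18 it went from 0.08 to 0.17 and for Il1rl2 from 0.12 to 0.24. In whole cultures a change in the number of cells of a type cannot be told apart from a change in RNA per cell.

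**Figure D1:**
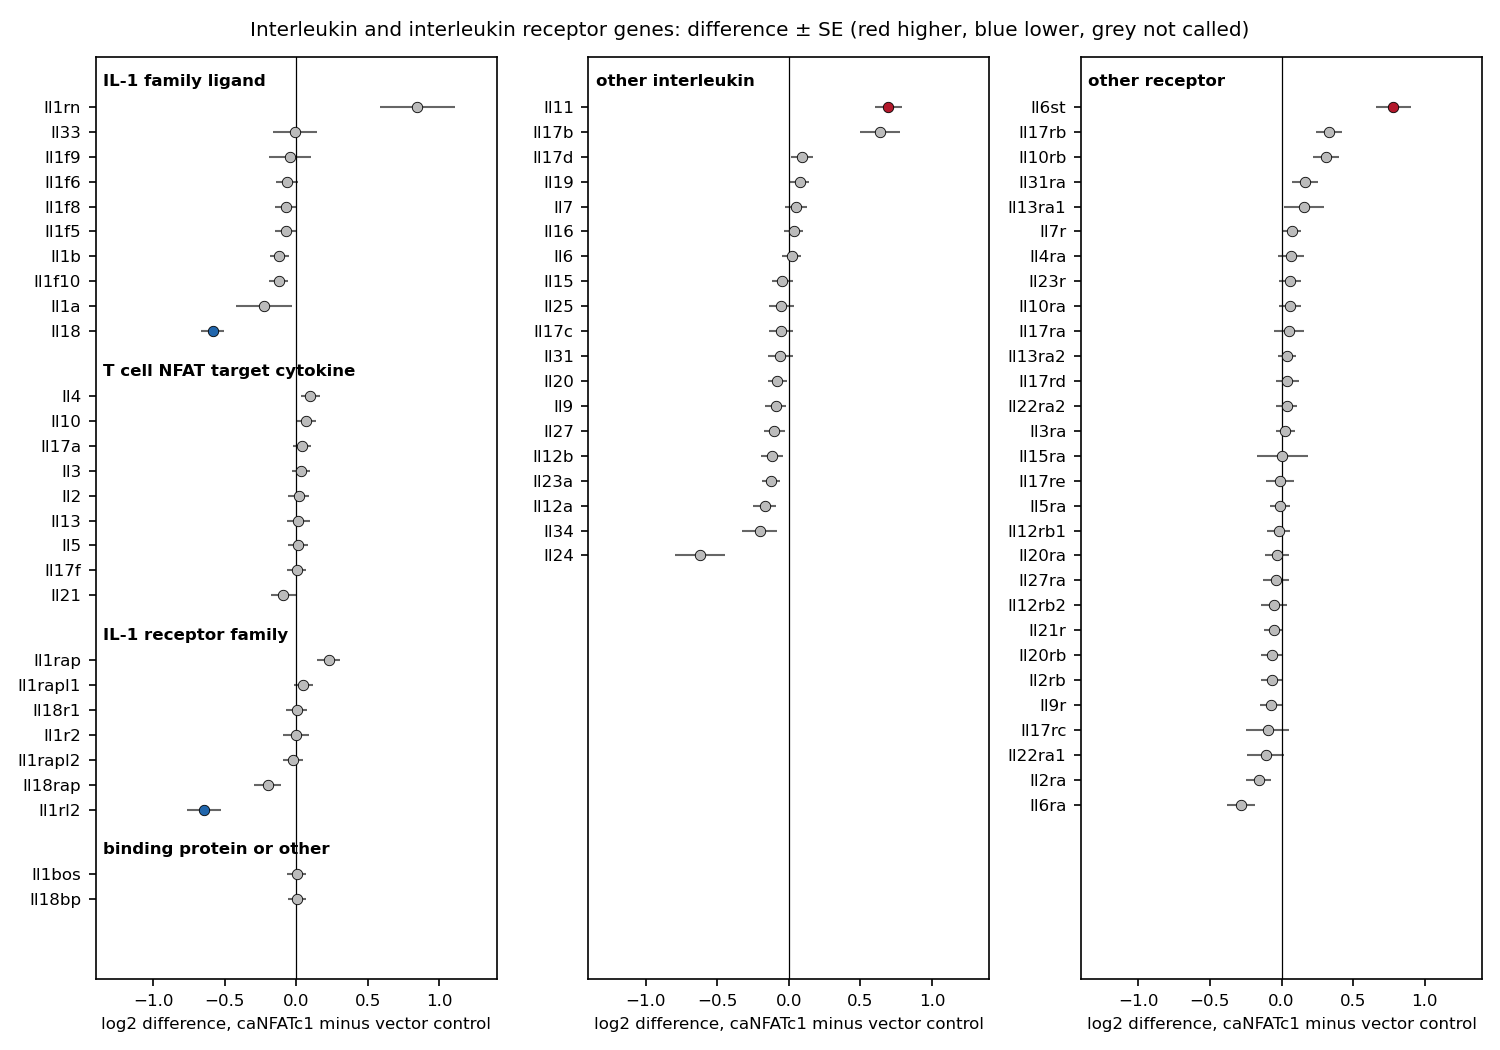
Log2 difference between caNFATc1 and vector control cells (horizontal axis) for each of the 76 genes, grouped by role, with bars of 1 SE from the fit with replicate pairs. Red marks the 2 genes called higher, Il11 and Il6st, blue the 2 called lower, Il18 and Il1rl2, and grey the genes not called, which include Il1rn, Il17b and Il24 at differences of 0.85, 0.64 and -0.62.

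Il11 encodes an interleukin of the IL-6 family that signals through gp130. Its values were -0.43, -0.25 and -0.64 on the vector control arrays of replicates 1, 2 and 3, and 0.25, 0.25 and 0.27 on the caNFATc1 arrays. Every caNFATc1 array lay above every control array, and the caNFATc1 arrays were closer to each other than the controls were. The difference was 0.69 ± 0.09, a ratio of 1.62 (adjusted p = 0.0203, and 0.0723 without the pairing), with 0.67, 0.49 and 0.91 in the 3 pairs. With replicate 1 left out the difference was 0.70 and the adjusted p 0.0539.

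Il6st encodes gp130, the signalling chain that IL-6, IL-11, leukaemia inhibitory factor and oncostatin M share. The control values were -0.76, -0.59 and -0.13 in replicates 1, 2 and 3, and the caNFATc1 values were 0.35, 0.13 and 0.38. The groups did not overlap, and control replicate 3 was the control nearest to the caNFATc1 arrays. The difference was 0.78 ± 0.12, a ratio of 1.72 (adjusted p = 0.0280, and 0.153 without the pairing). It was 1.11, 0.72 and 0.51 in the 3 pairs, and without replicate 2 the adjusted p was 0.0536.

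Il18 encodes an IL-1 family cytokine that is stored as a precursor and cut by caspase-1. The control values were 0.40, 0.03 and 0.44, and the caNFATc1 values were -0.03, -0.56 and -0.29. All caNFATc1 arrays were below all controls, but control replicate 2 and caNFATc1 replicate 1 lay close together. Il18 fell by 0.58 ± 0.08, a ratio of 0.668 (adjusted p = 0.0205, and 0.238 without the pairing). The pair differences were -0.43, -0.59 and -0.72, and without replicate 2 the adjusted p was 0.0597.

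Il1rl2 encodes the receptor for the IL-36 cytokines of the IL-1 family. The control values were -0.07, 0.64 and 0.54, and the caNFATc1 values were -0.47, 0.07 and -0.42. The groups overlapped, since the replicate 1 control lay below caNFATc1 replicate 2, while within each pair the caNFATc1 array was lower. Il1rl2 fell by 0.64 ± 0.12 (adjusted p = 0.0390, and 0.334 without the pairing), with pair differences of -0.40, -0.57 and -0.97. The call was lost without replicate 2 (adjusted p = 0.0786), with arrays centred on their medians (0.0525) and after quantile normalization (0.118).

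**Figure D2:**
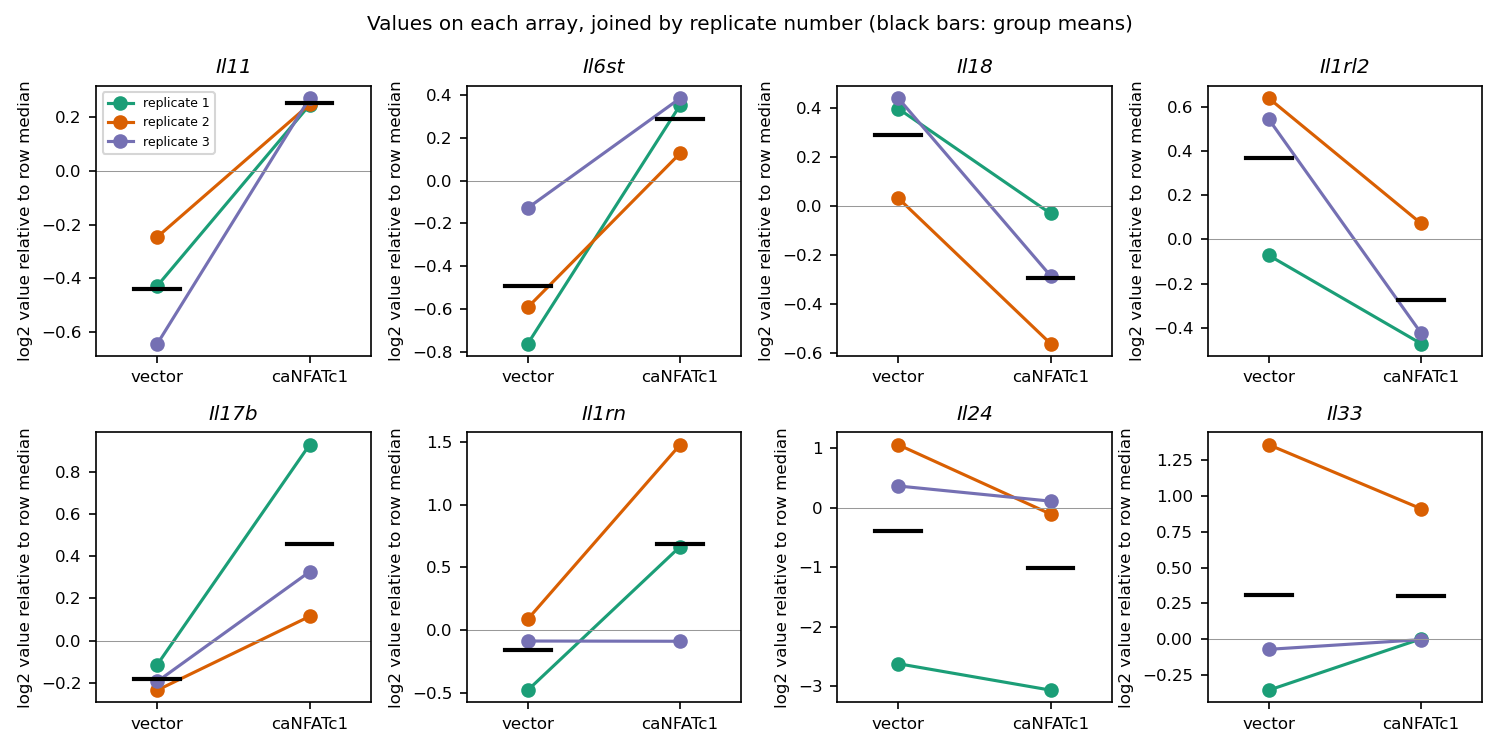
Log2 value relative to the row median (vertical axis, scaled separately in each panel) on the 3 vector and 3 caNFATc1 arrays for 8 genes, with arrays of the same replicate number joined by a line and group means as black bars. The lines of Il11 and Il6st all rise and those of Il18 and Il1rl2 all fall, Il1rn rises in replicates 1 and 2 but stays level in replicate 3, and Il24 lies at -2.62 and -3.07 in replicate 1, far below the other arrays.

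The promoters of the 4 called genes are shown because the transgene is a DNA-binding factor, together with that of Il2, a T cell target of NFAT. Each sequence runs from 250 bases before to 50 bases after an annotated gene start in RefSeq, on build GRCm38.p6, and is read along the strand of the gene. Capitals mark the NFAT core GGAAA or its reverse complement, and the AP-1 motif TGANTCA. The windows are chr7:4778092-4778391 on the minus strand for Il11, chr13:112463820-112464119 on the plus strand for Il6st, chr9:50554450-50554749 on the plus strand for Il18, chr1:40324339-40324638 on the plus strand for Il1rl2, and chr3:37125905-37126204 on the minus strand for Il2.
Il11: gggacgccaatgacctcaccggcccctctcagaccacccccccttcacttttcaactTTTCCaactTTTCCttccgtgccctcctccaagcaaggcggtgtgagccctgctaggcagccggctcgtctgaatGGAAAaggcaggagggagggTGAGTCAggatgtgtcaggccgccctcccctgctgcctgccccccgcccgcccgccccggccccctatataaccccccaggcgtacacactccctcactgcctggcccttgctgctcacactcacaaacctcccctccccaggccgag
Il6st: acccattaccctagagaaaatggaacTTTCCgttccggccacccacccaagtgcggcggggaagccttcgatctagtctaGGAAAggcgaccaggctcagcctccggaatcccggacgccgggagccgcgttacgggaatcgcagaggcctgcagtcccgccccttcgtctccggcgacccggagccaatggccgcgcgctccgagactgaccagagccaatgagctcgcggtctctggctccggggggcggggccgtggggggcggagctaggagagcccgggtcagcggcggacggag
Il18: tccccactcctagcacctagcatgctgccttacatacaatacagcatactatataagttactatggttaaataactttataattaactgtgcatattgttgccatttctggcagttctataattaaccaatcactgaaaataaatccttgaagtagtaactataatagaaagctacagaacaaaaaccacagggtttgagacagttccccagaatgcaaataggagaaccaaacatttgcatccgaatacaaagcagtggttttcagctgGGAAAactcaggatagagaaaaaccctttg
Il1rl2: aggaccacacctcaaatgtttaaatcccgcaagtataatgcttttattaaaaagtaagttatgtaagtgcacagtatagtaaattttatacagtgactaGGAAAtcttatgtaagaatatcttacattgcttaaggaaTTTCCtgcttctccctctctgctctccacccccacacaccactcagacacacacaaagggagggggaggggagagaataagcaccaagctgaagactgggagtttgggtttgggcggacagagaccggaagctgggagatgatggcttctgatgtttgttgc
Il2: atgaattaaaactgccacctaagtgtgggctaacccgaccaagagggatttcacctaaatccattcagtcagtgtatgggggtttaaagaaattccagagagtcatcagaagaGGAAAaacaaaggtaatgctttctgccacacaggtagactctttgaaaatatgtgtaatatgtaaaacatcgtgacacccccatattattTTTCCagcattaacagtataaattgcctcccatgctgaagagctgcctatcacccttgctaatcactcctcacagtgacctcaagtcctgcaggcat

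The Il11 window held 3 matches to the NFAT core and 1 to the AP-1 motif, with the third core match and the AP-1 match beginning at positions -118 and -98 relative to the gene start. A second annotated start of Il11, at chr7:4782808-4783107, held neither motif. The windows of Il6st, Il1rl2 and Il2 held 2 core matches each. That of Il18 held 1, beginning at position 20, after the gene start. None of these 4 windows held the AP-1 motif, and sites outside the windows or with other letters were not searched. The core is short and common: 61.3% of all 32851 promoter windows held it, and 7.81% held the AP-1 motif. Of the 71 windows found for 59 of the 76 genes, 74.6% held the core and 19.7% the AP-1 motif. A match is a description of these letters and not evidence of binding.

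None of the 9 interleukin genes known as NFAT targets in T cells was called, and their differences lay in a narrow band. This class holds Il2, the growth factor gene of T cells, Il3, a growth factor gene of blood cell precursors, Il4, Il5 and Il13, the type 2 cytokine genes, Il10, an anti-inflammatory cytokine gene, Il17a and Il17f, the genes of the neutrophil-attracting IL-17 response, and Il21. Limma called 0 of the 9, against 6.11% of all genes, and 0 calls among so few genes is near that share. In the fits with and without the pairing 0 of the 9 had an unadjusted p under 0.05, against 4287 and 2534 of all 19935 genes. Their differences ran from -0.09 for Il21 to 0.10 for Il4, with a median of 0.02. The 95% intervals of the 9 differences lay between -0.30 and 0.27, and that of Il11 was 0.46 to 0.93. Il11 is given for scale only, since it was picked for passing the test in these data. Between Il21 and Il4, Il10 and Il3 differed by 0.07 and 0.03, Il13 and Il5 by 0.01 each, and Il17f by 0.0020. Outside the interleukin genes, the T cell NFAT target Tnf was called higher, by 1.13, while Ifng and Csf2 were not called. These are given with the signalling genes below.

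The single arrays lay close together. Il2 was at -0.04, 0.09 and -0.05 in the controls and 0.02, -0.02 and 0.04 in caNFATc1 cells, and the groups overlapped. Il4 was at -0.05, 0.0012 and -0.10 in the controls and 0.12, 0.02 and -0.0012 in caNFATc1 cells. It was higher in caNFATc1 cells in each pair, by 0.18, 0.02 and 0.10, with an adjusted p of 0.502. Il17a was the only one of the 9 whose groups did not overlap, at -0.01, -0.04 and -0.01 against 0.01, 0.04 and 0.01, a difference of 0.04 ± 0.06. Among all genes 9.64% had no overlap with caNFATc1 higher and 9.09% with caNFATc1 lower. For the class the median range over the 6 arrays was 0.17, and 18.3% of all genes had a range at most that narrow. Such rows cannot be told apart from rows of genes that are not expressed. Of 8 T cell markers measured, limma called 0, with 1 at an unadjusted p under 0.05, and their differences ran from -0.20 to 0.04.

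**Figure D3:**
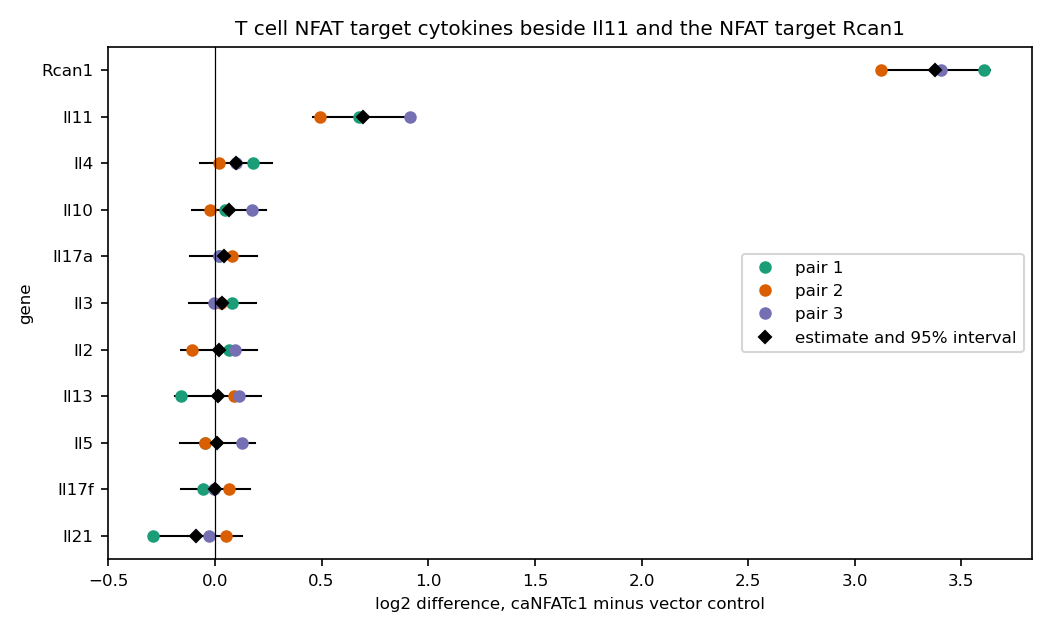
Log2 difference between caNFATc1 and vector control (horizontal axis) for the 9 interleukin genes known as NFAT targets in T cells, with Il11 and Rcan1 for scale. Coloured points are the 3 replicate pairs, black diamonds the estimates and lines their 95% intervals, and the cytokines cluster at 0 while Il11 lies at 0.69 and Rcan1 at 3.38.

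Among IL-1 family ligands, 1 of 10 was called, Il18, with 2.38% of all genes called lower. The median difference of the 10 was -0.07. Of the 10, 9 had a negative difference, against 10483 of all 19935 genes. Lower in every pair were 3 of the 10, against 21.3% of all genes, so this share was not below that of all genes. The gene with a positive difference was Il1rn, which encodes the IL-1 receptor antagonist, a protein that occupies the receptor without signalling. Its control values were -0.48, 0.09 and -0.09 and its caNFATc1 values 0.67, 1.48 and -0.09. It was higher by 1.15 and 1.39 in pairs 1 and 2 and differed by -0.0019 in pair 3. The difference of 0.85 ± 0.26 was the largest among the 76 genes and was not called (adjusted p = 0.132). Without replicate 1 it was 0.70 (0.326), without replicate 2 it was 0.57 (0.345), and without replicate 3 it was 1.27 and passed (0.0019).

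The remaining ligand and antagonist genes of the IL-1 family did not pass. Il1a, which encodes IL-1 alpha, differed by -0.22 ± 0.19 (adjusted p = 0.609), with pair differences of -0.65, 0.39 and -0.41, so the direction was not shared. Il1b differed by -0.12 ± 0.07 (0.381), with pair differences of -0.05, -0.14 and -0.17. Il33, whose protein is an alarm signal released from damaged barrier cells, differed by -0.01 ± 0.15. Its control values of -0.36, 1.36 and -0.07 show far more spread between cultures than between groups. The IL-36 genes carry their older names in the annotation. Il1f6, Il1f8 and Il1f9, also called Il36a, Il36b and Il36g, and the antagonist gene Il1f5, also called Il36rn, differed by between -0.08 and -0.04, with adjusted p from 0.646 to 0.925. Il1f9 ran from -1.11 to 0.72 in the controls and from -1.15 to 0.29 in caNFATc1 cells, with replicate 1 lowest in both. Il1f10, which encodes IL-38, differed by -0.12 ± 0.06 (0.356) and its groups did not overlap.

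Of the 7 measured genes of the IL-1 receptor family, Il1rl2 was the only call, with 2.38% of all genes called lower. Il1rap, the accessory chain that the receptors of IL-1, IL-33 and IL-36 share, differed by 0.23 ± 0.08 (adjusted p = 0.180). It was higher in each pair, by 0.40, 0.15 and 0.13, but its groups overlapped because control replicate 2, at 0.13, lay above caNFATc1 replicates 1 and 3. The IL-18 receptor genes Il18r1 and Il18rap differed by 0.0030 and -0.20 (0.991 and 0.313), and the decoy receptor gene Il1r2 by -0.0022 (0.995). Il18bp, whose protein captures IL-18, differed by 0.0021 ± 0.06, and Il1bos by 0.0023 ± 0.07. The genes Il1r1 and Il1rl1 were not analysed here.

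Of the 19 other interleukins, Il11 was the only call, with 3.73% of all genes called higher. A negative difference was seen for 12 of the 19, against 10483 of all 19935 genes. Il17b, which encodes a member of the IL-17 family, differed by 0.64 ± 0.14 and just missed the threshold (adjusted p = 0.0580). Its control values were -0.11, -0.24 and -0.19 and its caNFATc1 values 0.93, 0.11 and 0.33, so the groups did not overlap and caNFATc1 replicate 1 was the highest. It passed after quantile normalization (0.0406) and without replicate 2 (0.0483), and not without replicate 1 (0.0617) or replicate 3 (0.0518). Il17rb, the receptor gene for IL-17B, differed by 0.33 ± 0.09 (0.104), with 0.40, 0.11 and 0.49 in the pairs and no overlap between groups.

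Il24, an IL-10 family cytokine gene expressed by keratinocytes, varied more between cultures than any other of the 76 genes. Its control values were -2.62, 1.06 and 0.36 and its caNFATc1 values -3.07, -0.11 and 0.11, so replicate 1 was low in both groups. Within pairs it was lower in caNFATc1 cells with differences of -0.44, -1.16 and -0.25, a mean of -0.62 ± 0.18 (adjusted p = 0.108). Without replicate 2 it was -0.35 (0.169), without replicate 1 it was -0.71 (0.162), and without replicate 3 it was -0.80 and passed (0.0333). The related genes Il19 and Il20 differed by 0.07 and -0.08 (0.625 and 0.593). Il6, the acute inflammatory cytokine gene, differed by 0.02 ± 0.06 (0.925), with an interval of -0.14 to 0.18.

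Other interleukins that keratinocytes or their neighbours use were also not called. Il23a, a subunit of IL-23, differed by -0.13 ± 0.06 (adjusted p = 0.324) and was lower in each pair. Il34, the gene of a ligand on which Langerhans cells depend, differed by -0.20 ± 0.12 (0.425). The lymphocyte growth factor genes Il7 and Il15 differed by 0.05 and -0.05, and Il17c, an epithelial member of the IL-17 family, by -0.06. With Il11, Il17b and Il24 set aside, the remaining 16 lay between -0.20 and 0.09.

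Of the 29 receptor genes outside the IL-1 family, Il6st was the only call, with 3.73% of all genes called higher. The median difference of the 29 was 0.01. A positive difference was seen for 15 of them, against 9452 of all 19935 genes. Il6ra, which binds IL-6 and hands it to gp130, went the other way from Il6st, at -0.28 ± 0.10 (adjusted p = 0.162) with pair differences of -0.06, -0.31 and -0.48. Il10rb, the chain shared by the receptors for IL-10 and IL-22, differed by 0.31 ± 0.09 (0.111) and was higher in each pair, by 0.24, 0.17 and 0.53. Its control values ran from -0.53 to 0.63 between cultures. Il31ra, part of the receptor for the itch cytokine IL-31, differed by 0.16 ± 0.09 (0.382).

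The receptors through which T helper cytokines reach keratinocytes did not pass. Il4ra differed by 0.07 ± 0.09 (adjusted p = 0.786) and its partner Il13ra1 by 0.16 ± 0.14 (0.619). In Il13ra1 replicate 1 was low in both groups, at -1.12 in the control and -0.55 in caNFATc1 cells. The decoy gene Il13ra2 differed by 0.04 ± 0.06 (0.803). The IL-17 receptor genes Il17ra and Il17rc differed by 0.05 and -0.10 (0.860 and 0.812). The genes Il20ra, Il20rb and Il22ra1, chains of the receptors for IL-20, IL-24 and IL-22, differed by -0.03, -0.07 and -0.11. The 3 rows of Il20rb ranged from -0.10 to -0.04, while the 2 rows of Il22ra1 disagreed in sign, at -0.30 and 0.08. Il2ra, which is an NFAT target in T cells, differed by -0.16 ± 0.09 (0.386), and Il7r by 0.07 ± 0.07 (0.650). The 24 genes not named singly here lay between -0.17 and 0.09, and 0 were called.

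The shares of members with 1 direction in every pair lay below those of all genes. All 3 pairs were positive for 10 members, 13.2%, against 21.6% of all genes, and all 3 were negative for 8 members, 10.5%, against 21.3%. The groups did not overlap with caNFATc1 higher for 6 members, 7.89%, namely Il11, Il6st, Il17b, Il17rb, Il17a and Il13ra2, against 9.64% of all genes. They did not overlap with caNFATc1 lower for 2 members, Il18 and Il1f10, 2.63% against 9.09%. Spread between cultures was wide for a few: the control range exceeded 1 for 6 of the 76 genes, 7.89%, against 2.53% of all genes, and these were Il24, Il1f9, Il33, Il13ra1, Il10rb and Il15ra, the last named for this range.

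The wider signalling machinery of the interleukins was examined in a list of 48 genes, of which 45 were measured. Of these 5 were called higher and 1 lower, with a median difference of 0.04. Each of the 6 calls is from the fit with pairs. Among all genes 3.73% were called higher and 2.38% lower. The list was written with earlier results of these data known, so its counts and these shares are not an independent comparison. Osmr, which pairs with gp130 to bind oncostatin M, rose by 0.37 ± 0.06 (adjusted p = 0.0332), by 0.35, 0.36 and 0.40 in the pairs. Jak2, a kinase that cytokine receptors carry, rose by 0.48 ± 0.08 (0.0290). The related kinase genes Jak1 and Tyk2 were not called, at 0.16 and 0.31 (0.328 and 0.149). Further gp130 parts were also not called. The ligand genes Lif and Osm differed by -0.26 and -0.16 (0.201 and 0.322) and the receptor gene Lifr by -0.05 (0.739). Stat3, the main transcription factor downstream, differed by 0.19 (0.227), and its feedback inhibitor Socs3 by -0.08 (0.622). The alpha chains of the IL-11 receptor were not analysed here.

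Of the other calls, Stat5a, a transcription factor downstream of many interleukin receptors, rose by 0.56 ± 0.08 (adjusted p = 0.0245). Socs2, a feedback inhibitor of that route, fell by 0.55 ± 0.10 (0.0357). Tnf, a cytokine gene that is an NFAT target in T cells, rose by 1.13 ± 0.13 (0.0154), and the NF-kappa-B inhibitor gene Nfkbia rose by 0.94 ± 0.08 (0.00715). Other T cell NFAT target cytokine genes on that list, Ifng and Csf2, differed by 0.05 and -0.06 (0.786 and 0.768). Without the pairing limma called 0 of the 45. In that fit 12 of the 45 had an unadjusted p under 0.05, against 2534 of all 19935 genes. This too is not an independent comparison, since the list was written with earlier results known. Tnf and Nfkbia passed whichever pair was left out. Osmr was lost on leaving out any pair, Jak2 without replicate 1 or 2, Stat5a without replicate 2, and Socs2 without replicate 1 or 3. Tslp, a keratinocyte cytokine of allergic skin, and its receptor gene Crlf2 differed by 0.21 and 0.19 (0.204 and 0.224), and Casp1 by 0.04 (0.840).

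**Figure D4:**
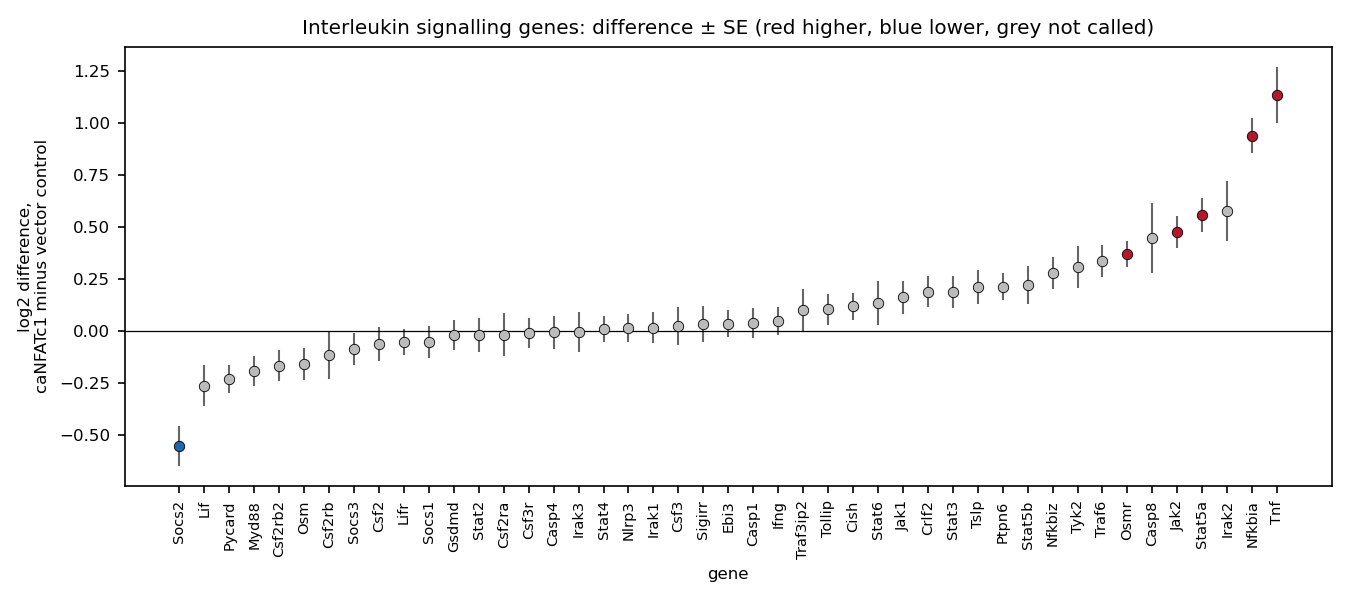
Log2 difference between caNFATc1 and vector control (vertical axis) with bars of 1 SE for 45 genes of interleukin signalling, ordered by size. Red marks the 5 called higher, Osmr, Jak2, Stat5a, Nfkbia and Tnf, and blue the 1 called lower, Socs2.

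Fibroblasts also make IL-11 and carry gp130, so their markers are given beside Il11 and Il6st. Of 6 fibroblast markers 1 was called, Col3a1, higher by 1.20 ± 0.19 (adjusted p = 0.0296). Pdgfra and Col1a1 differed by 0.83 and 0.48 without passing (0.0778 and 0.384), and Dcn, Col1a2 and Lum by 0.08, 0.05 and -0.01. The mean of the 6 ran from -0.16 to -0.07 on the control arrays and from 0.13 to 0.72 on the caNFATc1 arrays, and its pair differences were 0.21, 0.22 and 0.87. The marker mean differed most in pair 3, as did Il11, while Il6st differed least in pair 3 and most in pair 1. The part of these markers in the interleukin results was not tested. Markers of macrophages and dendritic cells, mast cells and melanocytes had 0 calls among 9, 6 and 6 genes, and limma gave each of them an unadjusted p above 0.05.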

How the data were processed

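The deposited values are log2, in a single table of 28815 rows by 6 arrays. Per the submitters' processing notes the authors used RMA and mm8. The sources used here do not give software or row filters. Every row's median over the arrays was 0 within 1e-06, so row brightness is not kept and no filter on dim rows was possible. The base of the logarithm was taken from RMA.

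Of the rows, 21780 had 1 gene symbol in the platform annotation, 1605 had several and 5430 were not listed. The 80 rows of the members were found by Entrez number in a table of GRCm38.p6, and 0 symbols changed. Rows of a gene were averaged. Groups were compared across all 19935 genes with limma (version 3.58.1, R 4.3.3; lmFit and eBayes, 2-sided, Benjamini-Hochberg), with group and replicate number as terms, because the rule that defines the members pairs by replicate number. Same-numbered arrays deviated together from their group means (r = 0.71, 0.61 and 0.57 for replicates 1, 2 and 3, against -0.60 to 0.18 for other pairings), each above a limit of 0.1. The series design calls the replicates biological, and p-values reflect only how much these samples varied. The fit was also run on simulated data with a replicate effect built in, which cannot show whether pairing suits these arrays.

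The members, lists and tests were chosen with earlier results of these data known. Genes named were those past the test, the 3 with the lowest p in each class, and a fixed list; among signalling genes, those past the test and some others chosen after their values were seen. Alternatives were no pairing, each pair left out, array centring, quantile normalization, robust eBayes, row medians and rows tested singly. The number of arrays limits the precision. Chromosome positions are those of the RefSeq promoter table.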

Additional observations from a re-analysis of the deposited data

How the results depend on the processing

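Counts are of genes higher and lower. Without the replicate block limma called 0 and 0 members against 2 and 2, 0 and 0 signalling genes against 5 and 1, and 41 and 2 of all genes against 744 and 475. At an unadjusted p under 0.05 it had 4 and 2 members, 10 and 2 signalling genes, and 1410 and 1124 of all genes. With whole pairs left out, members called ran from 1 to 3 higher and from 0 to 3 lower, signalling genes from 3 to 4 higher and from 0 to 1 lower, and all genes from 509 to 605 higher and from 202 to 481 lower. Without replicate 1 Il11 was not called, and without replicate 2 Il6st, Il18 and Il1rl2 were not. Without replicate 2, limma had 5 members lower at an unadjusted p under 0.05, against 1596 of all genes. All genes lower numbered 202 without replicate 1 and 230 without replicate 2. Centring arrays and quantile normalization each left 1 member lower, Il18, and quantile normalization gave 309 of all genes lower. Rows tested singly over 28815 rows, a larger number of tests, gave 1 member higher (Il11) and 1 lower (Il18), 3 signalling genes higher and 1 lower, and 374 and 139 of all genes. The cause of the other changes was not tested. Over 52 named members and 8 alternatives, 402 of 416 comparisons kept their side of the threshold, 10 lost a call, 4 gained one and 0 calls changed sign. Among values not called in either setting, 29 changed sign, the largest at 0.21 in size. Centring moved the median of all genes by 0.0047. Row brightness, and so the depth behind a level gene, is unknown.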

Other observations

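3 rows carry an interleukin symbol together with another symbol and so belong to none of the 76 genes. The 2 rows shared by Il22 and its near copy Iltifb differed by -0.05 ± 0.07 and -0.02 ± 0.07 (limma adjusted p = 0.812 and 0.923 over 28815 rows, n = 3 pairs). The row shared by Il4i1, an enzyme induced by IL-4, and Il4i1b differed by -0.15 ± 0.06 (0.260).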
